A study of Mus musculus with 11 samples.

Results

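Glucose reaches pyruvate and the mitochondrion through 35 genes, chosen by a list of mouse symbols that runs from the glucose carriers through glycolysis and the lactate branch to pyruvate dehydrogenase, with the muscle glycogen enzymes. All 35 were found among the 46517 Ensembl genes of the count table and all 35 passed the filter on low counts that left 14619 genes, so no member was lost. RNA was sequenced in bulk from mouse ventricular myocardium. Controls carried Tnnt2-Cre, a recombinase driven by the cardiac troponin T promoter and so active in cardiomyocytes, and are named WT here. Mice labelled KO carried the same Cre with both Lmnb2 alleles floxed (Lmnb2 encodes lamin B2 of the nuclear lamina), so that non-cardiomyocytes of the tissue keep the gene. Mice of 10 to 12 weeks had sham surgery or transverse aortic constriction (TAC), which loads the left ventricle with pressure, and the sources used here do not give the interval to sampling. Sham surgery gave 2 WT and 3 KO libraries, TAC gave 3 of each genotype, and each title holds a different number. All titles begin with TAC, those of sham mice too, and surgery was taken from the treatment label. The genotype label reads WT for WT sham 2 and Lmnb2 WT for each remaining control. The titles of KO sham 2, WT TAC 1 and KO TAC 3 end in F and the others in M. These numbers form separate runs for TAC and sham, so surgery and any batch that follows them cannot be told apart.

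Glucose enters muscle through GLUT1 and the insulin-responsive GLUT4, is trapped by hexokinase, committed to glycolysis by phosphofructokinase and cut into trioses that end as pyruvate. Pyruvate is either reduced to lactate, which monocarboxylate carriers move across the membrane, or enters mitochondria through the pyruvate carrier and is oxidised by pyruvate dehydrogenase, which the PDK kinases switch off. The adult heart draws most of its energy from fatty acids, and many of these steps have isozymes, some of them typical of adult striated muscle and others of fetal, proliferating or non-muscle cells.

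Libraries held 14.8 M to 17.3 M counts (M, mega). Lmnb2 itself measured 3.86 to 4.44 CPM (counts per 1 M counts of a library, scaled by TMM, which evens out differences in composition) in WT sham and 0.648 to 2.43 CPM in KO sham, but 2.16 to 6.69 CPM in WT TAC and 3.23 to 9.72 CPM in KO TAC, so that after TAC the KO label did not go with less of the targeted gene. Mitochondrially encoded genes took 32.8% to 49.4% of counts after sham and 13.2% to 35.9% after TAC. Cytoplasmic ribosomal protein genes took 0.654% to 1.73% after sham. They took 1.33% in WT TAC 3 and 0.874% in KO TAC 1, within the sham range, against 3.19% to 6.78% in the other 4 TAC libraries. WT TAC 3 and KO TAC 1 also stood apart from those 4 in several of the genes below. The 8 ventricular cardiomyocyte markers summed to 42466 to 65199 CPM after sham and 35788 to 52460 CPM after TAC. The 7 fibroblast markers summed to 706 to 1028 CPM after sham and 2324 to 5832 CPM after TAC, and the 6 macrophage markers to 178 to 375 CPM after sham and 323 to 2133 CPM after TAC. Over both genotypes 4 of the 7 and 6 of the 6 rose, and 2 of the 8 cardiomyocyte markers fell. Of all genes tested, 10.6% rose and 8.96% fell. The 4 fibroblast markers that rose were the matrix genes Col1a1, Col1a2, Col3a1 and Lum, while Pdgfra, Dcn and Tcf21 did not pass. Col3a1 alone was at 61.2 to 132 CPM after sham and 942 to 3549 CPM after TAC. The part of these cell types in the results below was not tested, and in bulk tissue fewer cells of a type and less RNA per cell cannot be told apart.

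The libraries also split by genes typical of astrocytes, a brain cell type that the tissue label does not name, and the source of these counts was not tested. Aldolase C (Aldoc), the aldolase isozyme typical of brain, measured 0.187, 0.0926 and 0.655 CPM in WT sham 1, KO sham 1 and WT TAC 1 and 10.6 to 19.0 CPM in the other 8 libraries. The 9 astrocyte genes of a list drawn up after this was seen split in the same way. They summed to 3.00 to 10.8 CPM in those 3 libraries and to 109.4 to 220.7 CPM in the other 8, with no overlap for any of the 9. Slc1a2, the main glutamate carrier of astrocytes, measured 1.25, 0.833 and 1.91 CPM against 63.9 to 145.0 CPM. The 5 neuron genes of a like list split in the same way at much lower levels, from 0 to 0.185 CPM in the 3 libraries and 0.993 to 3.07 CPM in the other 8. Snap25, Syt1 and Gad1 did not overlap, and Cck was at 0 in 10 of the 11 libraries. The 3 libraries low in Aldoc fall in 3 of the 4 groups. Counts of members called after TAC are therefore also given without them, a setting chosen after seeing the data.

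**Figure D1:**
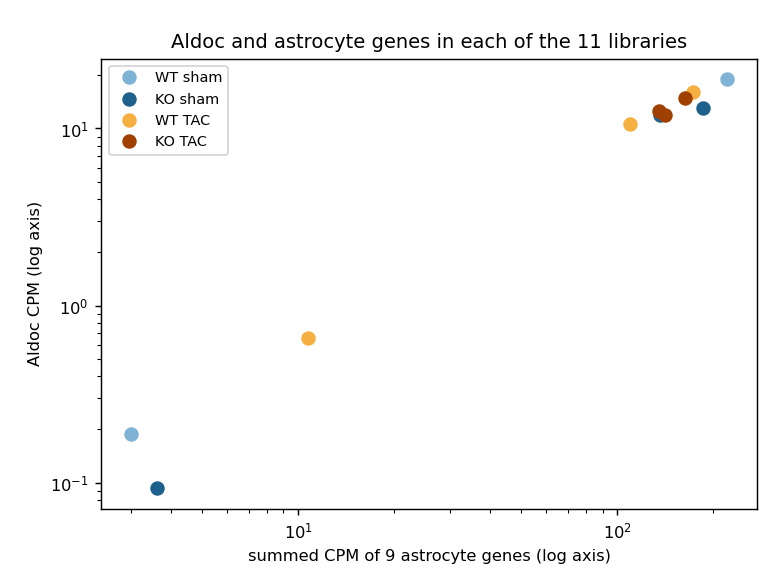
Aldoc in CPM (vertical, log axis) against the summed CPM of 9 astrocyte genes (horizontal, log axis), with 1 point for each of the 11 libraries coloured by group. The 3 libraries at the lower left, WT sham 1, KO sham 1 and WT TAC 1, sit at 0.655 CPM Aldoc or less, and the other 8 at 10.6 CPM or more.

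After TAC the 35 genes did not move as a block. Over both genotypes (edgeR with genotype and surgery as terms, 6 TAC against 5 sham libraries), 4 rose, 10 fell and 21 did not pass at an adjusted p under 0.05. Of all 14619 genes tested, 10.6% rose and 8.96% fell. The genes that rose were Pfkp, Slc16a3, Pgam1 and Eno1, and those that fell were Slc2a4, Hk2, Pfkm, Pfkfb1, Ldhb, Pdha1, Pdhb, Dlat, Pdk2 and Pygm. The median log2 change of the members was -0.21, against 0.05 over all genes tested. The libraries of TAC and sham did not overlap for 3 members that were higher and 9 that were lower, with 6.58% and 7.01% of all genes in the same position.

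Scaling by library totals moved this split. TMM without mitochondrial genes gave 5 higher and 10 lower, DESeq2 5 and 10, and limma-voom 3 and 10. Of all genes, these 3 called 2842, 3672 and 2717. With library totals in place of TMM the median of all genes shifted to 0.45, and 9 members rose and 3 fell, where the main scaling gave 4 and 10. Slc2a1, Gpi1, Gapdh, Pgk1 and Ldha were then called higher, at 0.73, 0.67, 0.63, 1.28 and 0.91, and of the falls only Slc2a4, Pfkfb1 and Ldhb were called. None of the 14 calls changed sign, but 8 members that did not pass under either scaling did (Pfkl, Aldoa, Tpi1, Pgam2, Pkm, Slc16a1, Pdk1 and Mpc2), so no direction is given for them. The genes called among all tested were 3961 with library totals and 2855 with TMM. Without the 3 libraries low in Aldoc, 4 of the 14 were called, Pfkp and Slc16a3 higher and Slc2a4 and Pfkfb1 lower, while the count over all genes fell to 904. Those 4 passed in all 22 alternatives run for this comparison. The ratio of 2 isozymes within a library does not depend on scaling, so 14 such ratios were tested as well. Of these, 12 differed between TAC and sham and 0 between KO and WT (exact permutation within strata, adjusted over the 14 ratios).

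**Figure D2:**
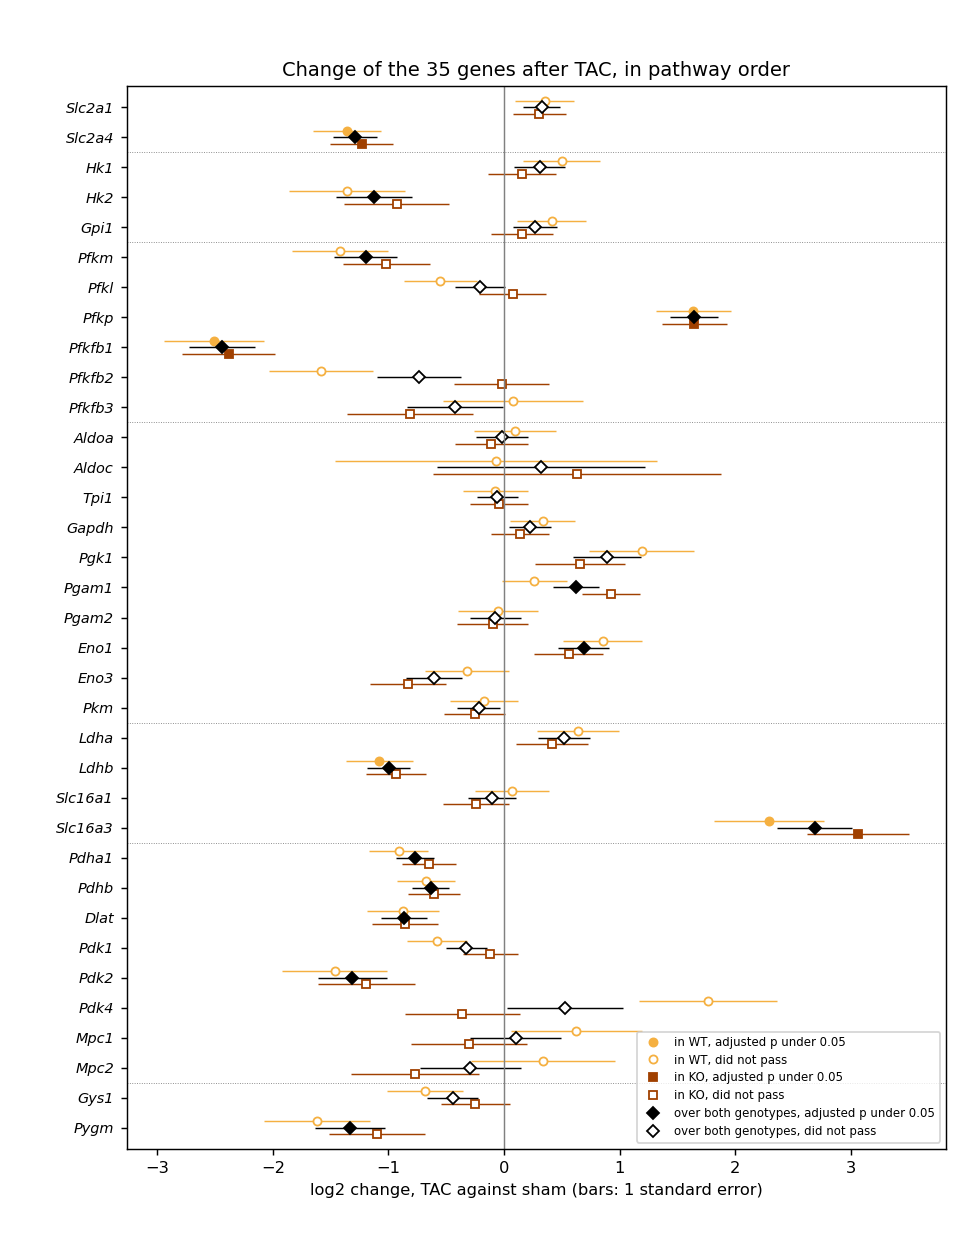
Log2 change after TAC (horizontal) of each of the 35 genes (vertical, in pathway order, dotted lines between steps), in WT, in KO and over both genotypes, with bars of 1 standard error. Filled symbols have an edgeR adjusted p under 0.05 and open ones do not. Over both genotypes Slc16a3 and Pfkp lie farthest to the right and Pfkfb1 farthest to the left, and Pdk4 and Pfkfb2 have the most separate values in the 2 genotypes.

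At the membrane, the carrier that insulin recruits was lower after TAC. Slc2a4 (GLUT4; ENSMUSG00000018566, GRCm38 chromosome 11, 69942539 to 69948188) measured 434 and 307 CPM in WT sham, 343, 344 and 277 in KO sham, 116, 168 and 149.6 in WT TAC and 169, 118 and 124 in KO TAC. Every TAC library was below every sham library. The log2 change was -1.29 ± 0.19 over both genotypes (edgeR adjusted p = 0.000616), -1.36 ± 0.29 in WT (adjusted p = 0.0208) and -1.23 ± 0.27 in KO (adjusted p = 0.0236). The WT value did not pass without any 1 of WT sham 1, WT sham 2, WT TAC 1 and WT TAC 2 (changes of -1.08 to -1.60). The KO value did not pass without any 1 of KO sham 1, KO sham 2, KO sham 3, KO TAC 2 and KO TAC 3 (changes of -1.11 to -1.33), and with library totals neither did (-1.04 in WT and -0.75 in KO).

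Slc2a1 (GLUT1, the carrier that works without insulin) measured 16.1 and 12.4 CPM in WT sham, 14.5, 13.1 and 11.9 in KO sham, 20.4, 15.8 and 18.2 in WT TAC and 14.5, 16.2 and 18.2 in KO TAC. These ranges overlapped, and its change of 0.33 ± 0.16 did not pass (edgeR adjusted p = 0.179). As log2 ratios of counts, Slc2a1 to Slc2a4 ran from -4.75 to -4.54 after sham and -3.54 to -2.51 after TAC, with no overlap, a difference of 1.62 (exact permutation p = 0.01, 0.0175 adjusted over the 14 ratios). Per kilobase of transcript, GLUT1 made up 2.903% ± 0.171 in WT sham (SD, n = 2), 3.09% ± 0.186 in KO sham, 9.12% ± 2.63 in WT TAC and 8.7004% ± 2.15 in KO TAC (SD, n = 3 each) of the 2 carriers, so that GLUT4 stayed the more abundant transcript in every group. In the sum of both carriers, 113 to 177 CPM per kilobase after sham stood against 51.5 to 71.6 after TAC.

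Hexokinase phosphorylates glucose and keeps it in the cell, and Hk2 is the insulin-sensitive form of muscle. Hk2 measured 186 and 171 CPM in WT sham, 129, 215 and 123 in KO sham, 51.3, 39.2 and 118 in WT TAC and 134, 50.4 and 60.8 in KO TAC. WT TAC 3 and KO TAC 1, the TAC libraries with the smallest ribosomal protein share, lay at or near the low end of sham, and the other 4 TAC libraries were between 39.2 and 60.8 CPM. The change was -1.12 ± 0.33 over both genotypes (edgeR adjusted p = 0.0292) and did not pass within either genotype. Leaving out those 2 libraries, the TAC libraries nearest to sham, necessarily enlarges the fall, here to -1.73. With library totals the change was -0.71 and did not pass. It also did not pass without any 1 of WT sham 1, WT sham 2, KO sham 2, WT TAC 1, WT TAC 2, KO TAC 2 and KO TAC 3 (changes of -0.96 to -1.10).

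Hk1, the form bound to mitochondria in most tissues, measured 109 and 97.3 CPM in WT sham, 83.2, 134 and 107 in KO sham, 99.5, 155 and 183 in WT TAC and 146, 123 and 93.4 in KO TAC. Its change did not pass (0.31 ± 0.22, edgeR adjusted p = 0.347). Hk1 to Hk2, as a log2 ratio, ran from -0.81 to -0.20 after sham and 0.12 to 1.98 after TAC, a difference of 1.55 (exact permutation p = 0.01, 0.0175 adjusted over the 14 ratios). Per kilobase it made up 45.3% ± 0.515 in WT sham (SD, n = 2), 50.2% ± 4.58 in KO sham, 75.8% ± 8.23 in WT TAC and 69.1% ± 8.43 in KO TAC (SD, n = 3 each) of the 2 hexokinases. Gpi1, which turns glucose 6-phosphate into fructose 6-phosphate, ranged over 242 to 316 CPM after sham and 266 to 451 CPM after TAC and did not pass.

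Phosphofructokinase is the committed step of glycolysis, and here the platelet isozyme rose while the muscle isozyme fell. Pfkm (muscle) measured 744 and 659 CPM in WT sham, 572, 784 and 607 in KO sham, 164, 198 and 424 in WT TAC and 453, 266 and 251 in KO TAC. All TAC libraries were below all sham libraries, and WT TAC 3 and KO TAC 1 were again the highest of the 6. The change was -1.20 ± 0.27 over both genotypes (edgeR adjusted p = 0.00834), and it did not pass with library totals (-0.78).

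Pfkp (platelet; ENSMUSG00000021196, GRCm38 chromosome 13, 6579768 to 6648777) measured 37.6 and 38.2 CPM in WT sham, 20.5, 34.4 and 38.9 in KO sham, 102, 109 and 143 in WT TAC and 88.6, 118 and 87.7 in KO TAC. All TAC libraries lay above all sham libraries, with a gap from 38.9 to 87.7 CPM. Its log2 change was 1.64 ± 0.20 over both genotypes (edgeR adjusted p = 0.000204), 1.64 ± 0.33 in WT (adjusted p = 0.0153) and 1.65 ± 0.28 in KO (adjusted p = 0.00693). The WT call was lost without either WT sham 1 or WT sham 2 (changes of 1.63 and 1.64). The exons of Pfkp overlap those of Pitrm1 on the opposite strand by 748 of 13401 bases. Of the main transcript of Pfkp, measured in short words of sequence, 17.1% is also found in Pitrm1. Over all libraries Pitrm1 held 7549 counts and Pfkp 14210. The sources used here do not say whether counting used strand, and the part of Pitrm1 in the Pfkp counts was not tested.

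Pfkl (liver) measured 79.2 and 64.9 CPM in WT sham, 41.9, 68.7 and 61.4 in KO sham, 39.2, 40.4 and 67.9 in WT TAC and 67.2, 63.98 and 50.1 in KO TAC, with overlapping groups, and did not pass (-0.21 ± 0.22, edgeR adjusted p = 0.547). The log2 ratio of Pfkp to Pfkm ran from -4.80 to -3.96 after sham and -2.35 to -0.69 after TAC, a difference of 2.98 (exact permutation p = 0.01, 0.0175 adjusted over the 14 ratios). For Pfkl to Pfkm it ran from -3.77 to -3.23 after sham and -2.75 to -2.05 after TAC, a difference of 1.08 (exact permutation p = 0.01, 0.0175 adjusted over the 14 ratios). Neither ratio overlapped between surgeries. Per kilobase, Pfkp made up 3.37% ± 0.328 in WT sham (SD, n = 2), 3.01% ± 0.858 in KO sham, 22.9% ± 5.03 in WT TAC and 16.3% ± 4.98 in KO TAC (SD, n = 3 each) of the 3 isozymes. Pfkm remained the largest share at 61.9% or more of the 3 in each library, and the sum of the 3 was 215 to 299 CPM per kilobase after sham against 92.1 to 200.01 after TAC.

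The bifunctional PFKFB enzymes make and break fructose 2,6-bisphosphate, the strongest activator of phosphofructokinase. Pfkfb1 (the liver and muscle form; ENSMUSG00000025271, GRCm38 chromosome X, 150588229 to 150643878) measured 24.99 and 20.7 CPM in WT sham, 29.7, 16.7 and 34.9 in KO sham, 4.58, 5.49 and 1.97 in WT TAC and 5.05, 3.75 and 6.75 in KO TAC. The highest TAC library, KO TAC 3, was below the lowest sham library, KO sham 2. Its log2 change of -2.44 ± 0.28 over both genotypes (edgeR adjusted p = 0.000135) was the largest fall among the 35 genes. It was -2.51 ± 0.43 in WT (adjusted p = 0.0077) and -2.38 ± 0.40 in KO (adjusted p = 0.00664). The WT call was lost without either WT sham 1 or WT sham 2 (changes of -2.37 and -2.65).

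Pfkfb2 (the heart form) measured 22.6 and 34.7 CPM in WT sham, 15.6, 18.2 and 14.9 in KO sham, 7.44, 5.96 and 15.2 in WT TAC and 20.6, 7.74 and 19.6 in KO TAC. It did not pass over both genotypes (-0.73 ± 0.36, edgeR adjusted p = 0.179). The WT sham libraries held the highest values of the 4 groups, and in KO the sham and TAC ranges overlapped. Its changes of -1.58 ± 0.45 in WT and -0.02 ± 0.41 in KO differed by 1.56 ± 0.61, with an unadjusted edgeR p of 0.0246 and an adjusted p of 0.992. The log2 ratio of Pfkfb1 to Pfkfb2 ran from -0.74 to 1.23 after sham and -2.93 to -0.12 after TAC, with overlap, a difference of -1.68 (exact permutation p = 0.03, 0.035 adjusted over the 14 ratios). By genotype the difference was -0.95 in WT and -2.21 in KO. The ratio did not pass with 1 library left out in 8 of 11 cases (each library except WT sham 2, WT TAC 1 and WT TAC 2). Pfkfb3, the inducible form, ranged over 3.54 to 15.4 CPM after sham and 2.001 to 12.5 CPM after TAC, did not pass, and its ratio to Pfkfb2 did not differ (exact permutation p = 0.58).

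**Figure D3:**
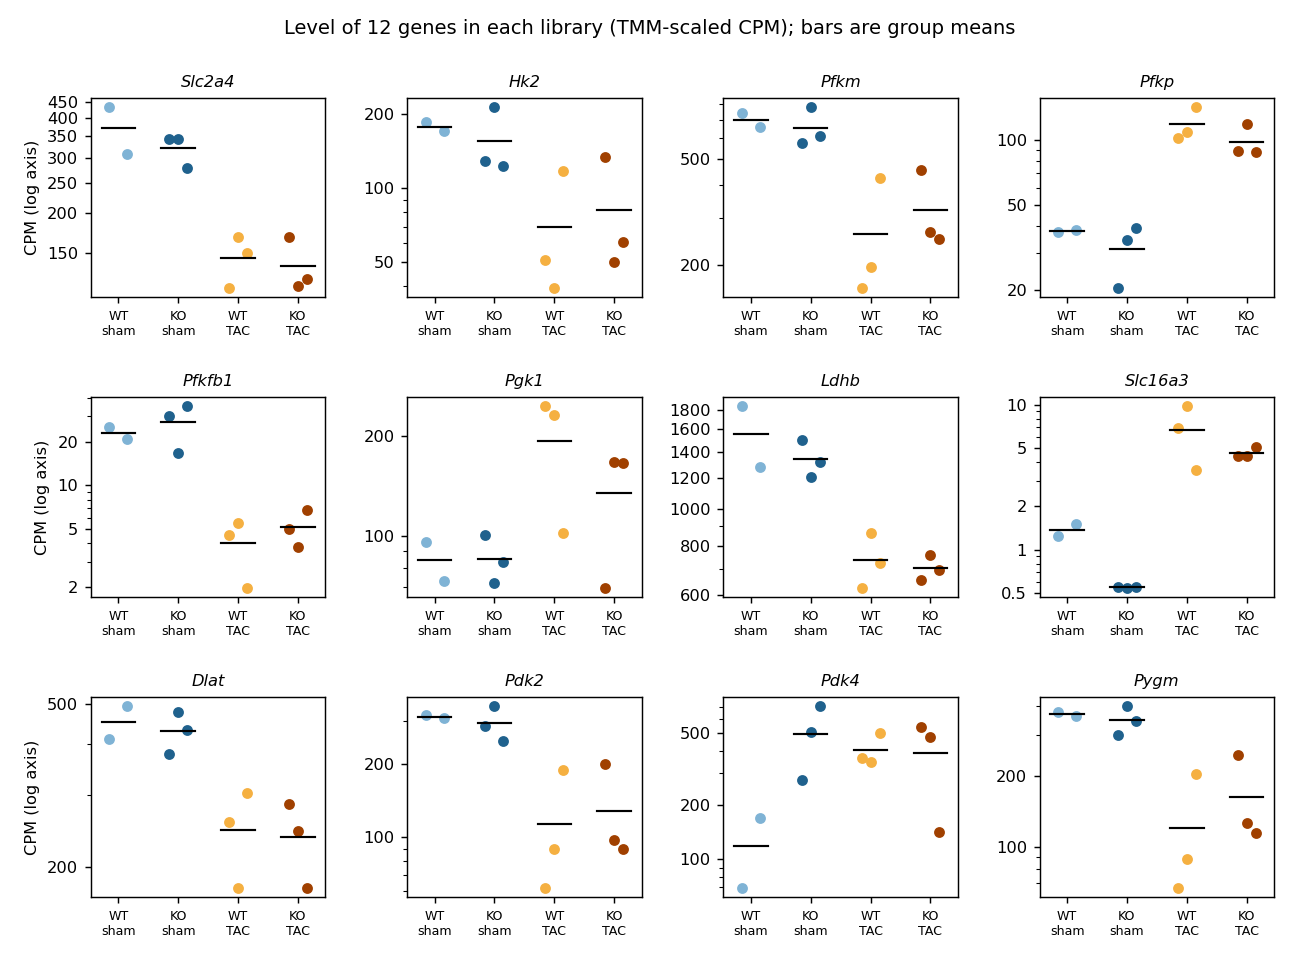
TMM-scaled CPM (vertical, log axis) of 12 genes in the 4 groups (horizontal), with 1 point per library and a bar at the group mean. TAC libraries lie wholly below sham for Slc2a4, Pfkm, Pfkfb1, Ldhb, Dlat, Pdk2 and Pygm and wholly above for Pfkp and Slc16a3, while in Hk2, Pfkm, Pgk1, Pdk2 and Pygm 1 WT TAC and 1 KO TAC library lie nearest to sham.

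Of the 10 genes from aldolase to pyruvate kinase, Eno1 and Pgam1 passed over both genotypes. Aldoa, Tpi1, Gapdh, Pgam2, Eno3 and Pkm did not, and their changes ran from -0.61 for Eno3 to 0.23 for Gapdh. Aldoa (aldolase A) ranged over 1437 to 2512 CPM after sham and 1257 to 2823 CPM after TAC, Tpi1 (triose phosphate isomerase) over 524 to 687 CPM after sham and 479 to 697 CPM after TAC, and Pkm (pyruvate kinase) over 604 to 776 CPM after sham and 464 to 771 CPM after TAC. Gapdh, often used as a reference gene, ranged over 719 to 891 CPM after sham and 767 to 1197 CPM after TAC, with 82.5% of the 50-base words of its transcript also present in other genes. The count table does not split Pkm into its alternative exons, so a switch between them was not analysed here.

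Eno1 (enolase alpha, the form of most non-muscle cells) measured 37.2 and 29.4 CPM in WT sham, 27.7, 32.02 and 29.8 in KO sham, 55.1, 84.4 and 41.4 in WT TAC and 45.96, 54.9 and 31.2 in KO TAC. KO TAC 3 lay within the sham range and the other 5 TAC libraries above it. The change was 0.69 ± 0.22 (edgeR adjusted p = 0.0421), and it did not pass without any 1 of WT sham 1, WT sham 2, KO sham 1, KO sham 2, KO sham 3, WT TAC 1, WT TAC 2 and KO TAC 2 (changes of 0.56 to 0.73). With 72.2% of its transcript's 50-base words shared with other genes, mostly with Eno1b, the count depends on how reads with several matches were treated.

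Eno3 (enolase beta, the striated muscle form) measured 1455 and 860.3 CPM in WT sham, 1459, 944 and 1064 in KO sham, 930.3, 1178 and 678 in WT TAC and 552, 559 and 838 in KO TAC, and the groups overlapped (-0.61 ± 0.25, edgeR adjusted p = 0.102). Eno1 to Eno3, as a log2 ratio, ran from -5.72 to -4.87 after sham and -4.75 to -3.35 after TAC, with no overlap, a difference of 1.25 (exact permutation p = 0.01, 0.0175 adjusted over the 14 ratios). Per kilobase Eno1 made up 2.25% ± 0.449 in WT sham (SD, n = 2), 2.04% ± 0.558 in KO sham, 4.702% ± 0.471 in WT TAC and 5.29% ± 2.22 in KO TAC (SD, n = 3 each) of the 2.

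Pgam1 (the brain form of phosphoglycerate mutase) measured 9.497 and 9.36 CPM in WT sham, 4.72, 6.995 and 7.43 in KO sham, 11.01, 12.1 and 10.8 in WT TAC and 11.05, 12.99 and 12.5 in KO TAC. The lowest TAC library lay above the highest sham library. It was called higher (0.63 ± 0.20, edgeR adjusted p = 0.0423), a call lost without any 1 of WT sham 1, WT sham 2, KO sham 1, KO sham 2, KO sham 3, WT TAC 2, KO TAC 2 and KO TAC 3 (changes of 0.50 to 0.70). Pgam2 (the muscle form) measured 682 and 400.2 CPM in WT sham, 584, 379.6 and 481 in KO sham, 485, 657 and 427 in WT TAC and 349.6, 547 and 452 in KO TAC, with wide overlap. Their log2 ratio ran from -6.94 to -5.41 after sham and -5.75 to -4.98 after TAC, a difference of 0.71 (exact permutation p = 0.03, 0.035 adjusted over the 14 ratios), and it did not pass in 8 of 11 cases with 1 library left out (each library except WT sham 2, WT TAC 1 and WT TAC 2). By genotype the difference of this ratio was 0.28 in WT and 1.05 in KO. Pgam1 was under 1.5% of the 2 mutases per kilobase in every library, and 41.5% of its 50-base words occur in other genes.

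Pgk1 (phosphoglycerate kinase, the first step that yields ATP) measured 96.3 and 73.2 CPM in WT sham, 101, 72.1 and 83.2 in KO sham, 247, 232 and 102 in WT TAC and 69.6, 168 and 167 in KO TAC. KO TAC 1 lay below and WT TAC 3 just above the sham range, and the other 4 TAC libraries were at 167 CPM or more. Its change of 0.89 ± 0.30 fell just short of the threshold (edgeR adjusted p = 0.0501), and it was called with library totals (1.28). Other genes share 68.0% of its 50-base words. Aldoc, described above with the libraries it separates, did not pass (0.32 ± 0.90).

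In the lactate branch, the carrier typical of cells that export lactate rose and the heart subunit of lactate dehydrogenase fell. Slc16a3 (MCT4; ENSMUSG00000025161, GRCm38 chromosome 11, 120948480 to 120960868) measured 1.25 and 1.49 CPM in WT sham, 0.556, 0.543 and 0.555 in KO sham, 6.97, 9.75 and 3.53 in WT TAC and 4.43, 4.45 and 5.09 in KO TAC. These are low levels, from 6 to 20 counts per sham library and 68 to 167 per TAC library. No TAC library overlapped sham. The log2 change was 2.69 ± 0.33 over both genotypes (edgeR adjusted p = 0.000182), the largest rise among the 35 genes. It was 2.29 ± 0.48 in WT (adjusted p = 0.0173) and 3.06 ± 0.44 in KO (adjusted p = 0.00308), and the WT call was lost without any 1 of WT sham 1, WT sham 2 and WT TAC 2 (changes of 1.94 to 2.41).

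Slc16a1 (MCT1, the carrier for uptake as well as export) measured 177 and 243 CPM in WT sham, 206, 229 and 165 in KO sham, 280.4, 153 and 226 in WT TAC and 169.7, 192 and 146 in KO TAC. It did not pass (-0.10 ± 0.21, edgeR adjusted p = 0.76), and per kilobase it kept 93.9% or more of the 2 carriers in each library. The log2 ratio of Slc16a3 to Slc16a1 ran from -8.64 to -7.11 after sham and -5.99 to -3.97 after TAC, with no overlap, a difference of 2.79 (exact permutation p = 0.01, 0.0175 adjusted over the 14 ratios).

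Ldhb, the subunit that predominates in heart, measured 1835 and 1278 CPM in WT sham, 1499.7, 1205 and 1323 in KO sham, 624, 865 and 722 in WT TAC and 655, 758 and 694 in KO TAC. The 6 TAC libraries lay below the 5 sham libraries. It fell by 0.999 ± 0.18 on the log2 scale over both genotypes (edgeR adjusted p = 0.00248). In WT the change was -1.08 ± 0.29 (adjusted p = 0.0428), which did not pass without any 1 of WT sham 1, WT sham 2, KO sham 1, KO sham 2, KO sham 3, WT TAC 1, WT TAC 2, KO TAC 2 and KO TAC 3 (changes of -0.79 to -1.33), nor with library totals (-0.77). The KO value of -0.93 ± 0.26 did not pass (adjusted p = 0.063). Without the 3 libraries low in Aldoc the change over both genotypes was -0.79 and did not pass. Of the words of its transcript, 27.0% occur in another gene, which held 146 counts over all libraries against 179105 for Ldhb.

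Ldha, the subunit typical of skeletal muscle and of tissues that make lactate, measured 624 and 437 CPM in WT sham, 554, 443 and 505 in KO sham, 803, 1097 and 585 in WT TAC and 476, 739 and 789.5 in KO TAC. The groups overlapped, and its change of 0.52 ± 0.23 did not pass (edgeR adjusted p = 0.127), while with library totals it was called higher at 0.91. Within libraries the separation was clear: the log2 ratio of Ldha to Ldhb ran from -1.56 to -1.39 after sham and -0.46 to 0.36 after TAC, a difference of 1.49 (exact permutation p = 0.01, 0.0175 adjusted over the 14 ratios). Per kilobase, Ldha made up 20.1% ± 0.0687 in WT sham (SD, n = 2), 21.6% ± 0.347 in KO sham, 44.8% ± 6.42 in WT TAC and 40.8% ± 5.45 in KO TAC (SD, n = 3 each) of the 2 subunits.

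The bases before the start sites of Slc16a3 and Ldha are printed because Slc16a3 had the largest rise among the 35 genes, the ratio of Ldha to Ldhb did not overlap between surgeries, and a window of each holds ACGTG, the core letters of the hypoxia response element. Windows are the 250 bases before a start in RefSeq (GRCm38.p6), and 34 of the 35 genes had at least 1, with 54 windows in all. Capitals mark ACGTG on either strand. The E-box CACGTG is its own reverse complement and so counts as 2 overlapping matches of ACGTG. The Slc16a3 window is chr11:120948817-120949066 on the plus strand and holds 2 matches, and the upstream Ldha window is chr7:46845554-46845803 on the plus strand and holds 5. A further Ldha window, chr7:46846832-46847081, holds 0 and is not printed.
Slc16a3: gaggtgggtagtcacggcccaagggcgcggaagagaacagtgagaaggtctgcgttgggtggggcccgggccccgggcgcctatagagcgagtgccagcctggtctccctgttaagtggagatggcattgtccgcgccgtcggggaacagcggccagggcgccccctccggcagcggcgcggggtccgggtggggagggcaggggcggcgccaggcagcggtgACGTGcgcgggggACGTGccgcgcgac
Ldha: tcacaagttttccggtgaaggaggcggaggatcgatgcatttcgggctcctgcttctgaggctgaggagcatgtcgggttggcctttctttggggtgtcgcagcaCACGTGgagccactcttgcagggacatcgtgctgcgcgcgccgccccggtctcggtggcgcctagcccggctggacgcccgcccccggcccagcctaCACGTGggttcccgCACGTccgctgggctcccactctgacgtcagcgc

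ACGTG on either strand occurred in 35.2% of the 54 member windows and in 16.6% of all 32841 windows. CACGTG occurred in 11.1% and 6.02%, and AAGGTCA, the half-site of estrogen-related receptors, in 3.70% and 4.08%. The share with ACGTG can be given by the change of the gene, with 2 of 6 windows of genes that rose over both genotypes, 6 of 16 of those that fell and 11 of 32 of those that did not pass. Windows of 1 gene can overlap, and a match is a run of letters and not a measured site.

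At the entry to mitochondria, the 3 pyruvate dehydrogenase subunits among the 35 genes were called lower over both genotypes with TMM, though not with library totals. Pdha1 (E1 alpha) measured 982 and 1028 CPM in WT sham, 853, 979 and 901 in KO sham, 471, 535 and 597 in WT TAC and 582, 599 and 559 in KO TAC. Pdhb (E1 beta) measured 779.7 and 772 CPM in WT sham, 777, 674 and 737 in KO sham, 495, 489 and 473 in WT TAC and 447, 504 and 489 in KO TAC. Dlat (E2, the acetyltransferase core) measured 409.8 and 494 CPM in WT sham, 377, 478 and 432 in KO sham, 258, 178 and 304 in WT TAC and 286, 245 and 178 in KO TAC. For each of the 3, all TAC libraries lay below all sham libraries. The changes over both genotypes were -0.77 ± 0.17 for Pdha1 (edgeR adjusted p = 0.00631), -0.64 ± 0.16 for Pdhb (adjusted p = 0.0133) and -0.87 ± 0.20 for Dlat (adjusted p = 0.00927). None of the 3 passed within a single genotype. With library totals the changes were -0.36, -0.23 and -0.46, and none passed. Other genes share 30.3% of the transcript words of Pdhb and 16.9% of those of Pdha1. Over all libraries these other genes held 175 counts against 104946 for Pdhb, and 187 against 128189 for Pdha1. Of the subunits outside the 35, singled out after their values were seen, Dld (E3) was at 659 to 889.6 CPM after sham and 383 to 613 CPM after TAC (-0.79 ± 0.18, edgeR adjusted p = 0.0088). Pdhx, which binds E3, was at 164 to 227 CPM after sham and 125 to 191 CPM after TAC and did not pass (-0.41 ± 0.17, edgeR adjusted p = 0.117).

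PDK kinases phosphorylate and switch off the E1 subunit. Pdk2, the most widely expressed of them, measured 319 and 309 CPM in WT sham, 288, 347 and 249.7 in KO sham, 62.04, 89.5 and 189 in WT TAC and 199.7, 97.997 and 89.5 in KO TAC. The TAC libraries lay below the sham libraries, with WT TAC 3 and KO TAC 1 the closest to them. The change was -1.31 ± 0.30 (edgeR adjusted p = 0.00826), and -0.89 with library totals, where it did not pass. Leaving out those 2 libraries necessarily enlarges the fall, here to -1.85.

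Pdk4, the kinase that fasting and fatty acids induce in muscle, measured 69.5 and 169 CPM in WT sham, 277, 509.9 and 708 in KO sham, 367, 347 and 504 in WT TAC and 541, 480.4 and 143 in KO TAC. The WT sham libraries were the lowest of the WT libraries, and in KO sham and TAC overlapped. Its changes of 1.77 ± 0.60 in WT and -0.36 ± 0.50 in KO did not pass (edgeR adjusted p = 0.09 and 0.777). With library totals they were 2.15 in WT, which passed (edgeR adjusted p = 0.0484), and 0.07 in KO, which did not, so the sign in KO depends on scaling. Pdk1, the kinase known as a hypoxia target, measured 186 and 206 CPM in WT sham, 161, 162 and 156 in KO sham, 148, 113 and 133 in WT TAC and 116, 172 and 152 in KO TAC, and did not pass (-0.33 ± 0.18, edgeR adjusted p = 0.22).

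Of the kinases among the 35 genes, Pdk4 and Pdk1 both had higher ratios to Pdk2 after TAC over both genotypes. The log2 ratio of Pdk4 to Pdk2 ran from -2.20 to 1.503 after sham and 0.67 to 2.56 after TAC, with overlap through KO sham 3, a difference of 1.93 (exact permutation p = 0.03, 0.035 adjusted over the 14 ratios). That of Pdk1 to Pdk2 ran from -1.10 to -0.58 after sham and -0.78 to 1.26 after TAC, with overlap, a difference of 1.11 (exact permutation p = 0.03, 0.035 adjusted over the 14 ratios). In KO, Pdk4 to Pdk2 overlapped, at -0.06 to 1.503 after sham and 0.67 to 2.29 after TAC. By genotype the difference was 3.51 in WT and 0.80 in KO for Pdk4 to Pdk2, and 1.04 in WT and 1.14 in KO for Pdk1 to Pdk2. The first lost its call in 10 of 11 cases with 1 library left out (each library except KO sham 3) and the second in 9 of 11 (each except KO sham 3 and KO TAC 1). Per kilobase, Pdk2 made up 66.3% ± 7.73 in WT sham (SD, n = 2), 44.2% ± 10.9 in KO sham, 24.98% ± 7.99 in WT TAC and 29.95% ± 8.47 in KO TAC (SD, n = 3 each) of these 3 kinases. Pdk3, a kinase outside the 35 and singled out after its values were seen, was at 1.39 to 2.96 CPM after sham and 4.62 to 19.2 CPM after TAC (2.13 ± 0.38, edgeR adjusted p = 0.00226), with no overlap.

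**Figure D4:**
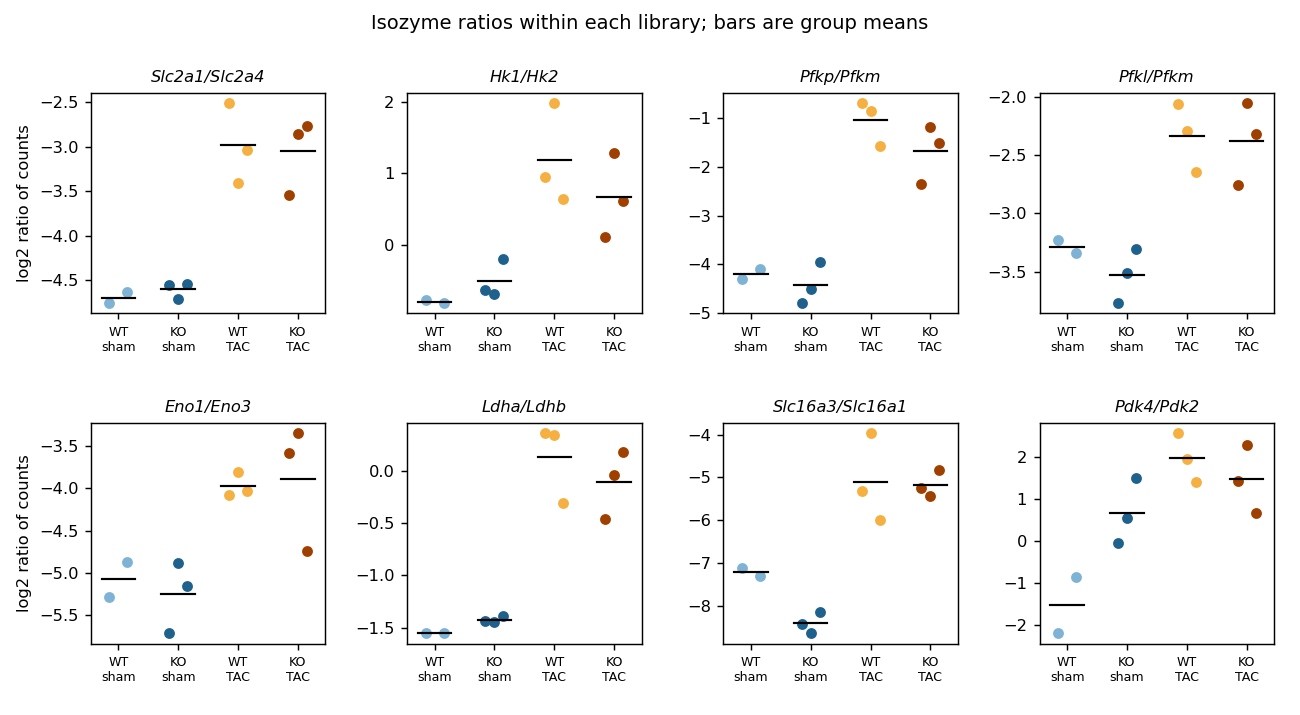
Log2 ratio of the counts of 2 isozymes within a library (vertical) for 8 pairs, by group (horizontal), with 1 point per library and a bar at the group mean. TAC and sham libraries do not overlap in 7 of the 8 panels, and in the Pdk4 to Pdk2 panel KO sham 3 lies within the TAC range.

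The mitochondrial pyruvate carrier is a pair of Mpc1 and Mpc2. Mpc1 measured 82.7 and 43.3 CPM in WT sham, 83.6, 48.6 and 74.98 in KO sham, 146, 109 and 37.7 in WT TAC and 24.3, 69.3 and 74.1 in KO TAC. Mpc2 measured 459.9 and 262 CPM in WT sham, 591, 272 and 509 in KO sham, 803, 400.0 and 165 in WT TAC and 117, 338 and 351 in KO TAC. Neither passed (0.10 ± 0.39 and -0.29 ± 0.44), the groups overlapped, and within TAC the lowest values of both were in WT TAC 3 and KO TAC 1. The log2 ratio of Mpc1 to Mpc2 ran from -2.82 to -2.48 after sham and -2.46 to -1.88 after TAC, a difference of 0.42 (exact permutation p = 0.01, 0.0175 adjusted over the 14 ratios). This is the smallest of the 12 ratio differences that passed, and 44.2% of the 50-base words of Mpc1 occur in other genes, with 3050 counts assigned to the pseudogene Mpc1-ps.

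Of the glycogen enzymes, Pygm (muscle glycogen phosphorylase, which releases glucose 1-phosphate) measured 377 and 361 CPM in WT sham, 299.9, 399 and 346 in KO sham, 66.5, 88.9 and 205 in WT TAC and 247, 126 and 114 in KO TAC. The TAC libraries lay below the sham libraries, with WT TAC 3 and KO TAC 1 the closest to them. Pygm fell over both genotypes (-1.33 ± 0.30, edgeR adjusted p = 0.00866), and did not pass with library totals (-0.91). Leaving out those 2 libraries necessarily enlarges the fall, here to 1.87 on the log2 scale. Gys1 (muscle glycogen synthase) ranged over 61.9 to 117 CPM after sham and 42.99 to 84.3 CPM after TAC and did not pass (-0.44 ± 0.22).

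Taken by genotype, 2 members rose and 3 fell after TAC in WT, where 3.88% of all genes tested rose and 3.04% fell. In KO 2 rose and 2 fell, with 3.32% and 1.37% of all genes. Pfkp, Slc16a3, Slc2a4 and Pfkfb1 were called in both genotypes and Ldhb in WT. With library totals the split was 3 higher and 1 lower in each genotype, with 1170 of all genes called in WT and 1381 in KO. Pdk4 was then called in WT and Pgam1 in KO, while Slc2a4 was called in neither and Ldhb not in WT. The group means of these 2 comparisons share no libraries, but both came from the same fit of 4 group means. The spread between libraries was thus estimated from both genotypes, and the 2 sets of calls are not independent. With only the groups compared in the fit, 2 members were called in WT and 4 in KO, beside 465 and 584 of all genes. Slc2a4, Slc16a3 and Ldhb were then not called in WT. The count in WT depended on single libraries: it was 0 without WT sham 1 or WT sham 2, 3 without WT TAC 1, 2 without WT TAC 2, 10 without KO TAC 1 and 14 without WT TAC 3. For these settings with 1 library left out the counts over all genes are not given here, so they are not a result about the members alone. In Hk2, Pfkm, Pdk2 and Pygm, WT TAC 3 and KO TAC 1 were the TAC libraries nearest to sham, so leaving both out enlarges those falls. Without both, the count of members was 18 in WT and 12 in KO. Over all genes the calls rose at this setting from 1011 to 4373 in WT and from 687 to 2117 in KO. It was 0 in both genotypes without the 3 libraries low in Aldoc, with 0 of all genes called in WT and 47 in KO, which leaves 1 WT sham and 2 WT TAC libraries.

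No member differed between KO and WT after sham, between KO and WT after TAC, or in its TAC response between genotypes, with 0 of 14619 genes called by edgeR in each of these comparisons (0% of genes tested). DESeq2 and limma-voom also called 0 members. At an unadjusted edgeR p under 0.05 there were 2 members after sham, 0 after TAC and 2 for the difference of responses. After sham, Pdk4 was higher in the libraries labelled KO, from 277 to 708 CPM against 69.5 and 169 CPM in WT (2.06 ± 0.60, unadjusted p = 0.00493, adjusted p = 1). Slc16a3 was lower, from 0.543 to 0.556 CPM against 1.25 and 1.49 CPM (-1.30 ± 0.49, unadjusted p = 0.02, adjusted p = 1), with 6 to 9 counts per KO sham library. In neither gene did the groups overlap. The same held for 1 member that was higher and 6 that were lower, these 2 included, and for 6.79% and 8.47% of all genes tested. The TAC responses of Pdk4 differed by -2.13 ± 0.77 (unadjusted p = 0.0166, adjusted p = 0.992), a value that uses the same sham libraries. With no filter on low counts Pdk4 passed in both comparisons, with 1 member called in each. At that setting 20 of all genes were called after sham and 80 for the difference of responses.

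The wider pathway was read from lists of genes outside the 35, after TAC over both genotypes. The list counts are from TMM with all 11 libraries. They were not repeated with library totals, which moved the split of the 35 genes, or without the 3 libraries low in Aldoc. Of 31 tested genes of sugar carriage, glycolysis, lactate and pyruvate use, 2 rose and 13 fell, with a median of -0.46, where 10.6% of all genes tested rose and 8.96% fell with a median of 0.05. Fbp2, the muscle fructose bisphosphatase, was at 18.2 to 31.5 CPM after sham and 2.32 to 10.05 CPM after TAC (-2.14 ± 0.26, edgeR adjusted p = 0.000183). Ldhd, the mitochondrial dehydrogenase of D-lactate, was at 41.3 to 60.4 CPM after sham and 8.39 to 22.002 CPM after TAC (-1.60 ± 0.23, edgeR adjusted p = 0.000555). Slc2a12, a further insulin-responsive sugar carrier, was at 8.62 to 13.7 CPM after sham and 1.61 to 4.62 CPM after TAC (-1.77 ± 0.28, edgeR adjusted p = 0.000953). For each of these 3 the TAC and sham libraries did not overlap.

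Of 22 tested glycogen genes, 3 rose and 4 fell, with a median of -0.41, beside the same shares of all genes. Phkg1, the catalytic subunit of muscle phosphorylase kinase, which switches on Pygm, was at 17.6 to 22.2 CPM after sham and 0.924 to 3.76 CPM after TAC (-3.05 ± 0.29, edgeR adjusted p = 4.92e-05). Epm2a, the glycogen phosphatase laforin, was at 26.2 to 36.7 CPM after sham and 12.96 to 19.1 CPM after TAC (-0.98 ± 0.17, edgeR adjusted p = 0.00187). Stbd1, a glycogen-binding protein, was at 4.41 to 8.93 CPM after sham and 7.86 to 27.6 CPM after TAC (1.46 ± 0.30, edgeR adjusted p = 0.00497). The first 2 were lower in every TAC library than in any sham library, and KO TAC 1 lay within the sham range of Stbd1.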

How the data were processed

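RNA from ventricular myocardium of 11 mice was sequenced, and the deposited table gives raw counts, checked to be whole numbers, for 46517 Ensembl genes with 1 column per library. The submitters' processing notes name STAR 2.5.1, featureCounts, DESeq2 and the build GRCm38. For the role of each tool, the annotation, the use of strand and how multiply matching reads were counted, the answer is not given in the sources used here.

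Groups came from the genotype and treatment labels, not from the titles, which begin with TAC in sham mice too. Counts were fitted with edgeR 4.0.16 (quasi-likelihood, TMM scaling, filterByExpr, which left 14619 genes) in R 4.3.3. One fit of 4 group means gave the changes within genotypes, the genotype comparisons and the difference of responses, and a fit of genotype plus surgery gave the change over both genotypes. P-values are 2-sided and adjusted over all genes tested by Benjamini-Hochberg, with a threshold of 0.05. Changes are log2 with a standard error derived from the F statistic, which is approximate. Where nothing says how mice were housed or sampled, p-values measure only the spread between these libraries.

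Isozyme ratios are log2 of raw counts plus 0.5, tested by an exact permutation of labels within strata (200 arrangements, smallest 2-sided p 0.01) and adjusted over 14 ratios. Levels of different genes were compared per kilobase of transcript. Shared sequence was measured as 50-base words of a transcript found in other genes. The fitting script was tested on simulated data. Depth was 14.8 M to 17.3 M counts per library (M, mega), and precision for genes near 10 counts is limited by counting. Alternatives were other scalings (library totals, TMM without mitochondrial genes), DESeq2 1.42.0, limma-voom (limma 3.58.1), other filters, covariates and libraries left out.

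The members and lists were chosen with earlier results of these data known. All 35 members are accounted for. Members called in any comparison, and both members of each pair whose ratio passed, are given in every library. From each pathway list, up to 3 called genes with the smallest p are named. Further genes are named where the text says they were singled out after their values were seen. The astrocyte and neuron lists, and the settings that use them, were chosen after seeing the data.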

Additional observations from a re-analysis of the deposited data

How the results depend on the processing

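No call changed sign, but with library totals the members called over both genotypes turned from 4 higher and 10 lower to 9 higher and 3 lower, and 8 members that were not called changed sign. Counts over all genes moved too. In WT these were 1011 with the chosen settings, 2197 with DESeq2 and 2243 with no filter. They were 1324 with ribosomal protein share as covariate, 465 with only the groups compared and 4373 without WT TAC 3 and KO TAC 1. In KO they were 687 with the chosen settings, 1490 with DESeq2, 2295 with that covariate and 2117 without those 2 libraries. The number of members called after TAC in WT (5) was 13 with DESeq2, 11 with no filter on low counts, 11 with ribosomal protein share as covariate, 2 with only the groups compared in the fit, 18 without WT TAC 3 and KO TAC 1, and 0 without the 3 libraries low in Aldoc. With 1 library left out it ran from 0 to 14. In KO (4) it was 10 with DESeq2, 15 with ribosomal protein share as covariate, 12 without WT TAC 3 and KO TAC 1, and 0 without the 3 libraries low in Aldoc, and it ran from 3 to 6 with 1 library left out. Over both genotypes (14) it was 4 without the 3 libraries low in Aldoc and 11 to 16 with 1 library left out. With no filter on low counts, 1 member was called for KO against WT after sham and 1 for the difference of responses, beside 20 and 80 of all genes. Of the 14 isozyme ratios, 12 passed, 8 to 10 with 1 library left out and 0 without WT TAC 3 and KO TAC 1, where fewer arrangements are possible. The cause of the other changes was not tested. With titles ending in M only, and without the 3 libraries low in Aldoc, the exact test could not reach the threshold, so the ratios have values and no test. No paired analysis was possible because the labels give no number that the groups share. Depth limits Slc16a3 and Car9 in sham libraries.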

Other observations

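Side routes of glucose use were read from further lists, after TAC over both genotypes, where 10.6% of all genes tested rose and 8.96% fell. Of 10 pentose phosphate genes 0 rose and 1 fell, Rpia (ribose phosphate isomerase), at 8.99 to 13.1 CPM after sham and 1.93 to 9.29 CPM after TAC (-1.01 ± 0.33, edgeR adjusted p = 0.0474). Of 9 tested hexosamine and polyol genes 0 rose and 3 fell. They were Akr1b3 (aldose reductase; -0.79 ± 0.17, edgeR adjusted p = 0.00668), Uap1, which makes the donor sugar for protein O-GlcNAc (-0.51 ± 0.14, edgeR adjusted p = 0.0252), and Sord (sorbitol dehydrogenase; -0.91 ± 0.27, edgeR adjusted p = 0.032). Akr1b3 and Uap1 were lower in every TAC library than in any sham library.

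Of 20 genes that carry the insulin or AMPK signal to GLUT4, 2 rose and 4 fell, with a median of -0.42, beside 10.6% and 8.96% of all genes. The 2 beta subunits of AMP-activated kinase moved in opposite directions. Prkab2 was at 39.99 to 70.6 CPM after sham and 52.5 to 205 CPM after TAC (1.25 ± 0.25, edgeR adjusted p = 0.00386) and Prkab1 at 24.4 to 38.9 CPM after sham and 12.4 to 22.1 CPM after TAC (-0.95 ± 0.20, edgeR adjusted p = 0.00485), and KO TAC 1 lay within the sham range of Prkab2. Akt2, the insulin-signalling kinase that moves GLUT4 to the membrane, was at 92.7 to 105 CPM after sham and 22.4 to 66.5 CPM after TAC (-0.98 ± 0.22, edgeR adjusted p = 0.00808).

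Of 28 transcriptional regulators of glucose use and their known targets, 4 rose and 5 fell, with a median of -0.44, beside the same shares of all genes. Egln1, an oxygen-sensing prolyl hydroxylase that marks HIF for breakdown, was at 312 to 391 CPM after sham and 118 to 218 CPM after TAC (-1.16 ± 0.19, edgeR adjusted p = 0.00132). Mef2a, a muscle transcription factor known to act on Slc2a4, was at 174 to 216 CPM after sham and 96.03 to 146 CPM after TAC (-0.79 ± 0.17, edgeR adjusted p = 0.00696). Car9, a classic hypoxia target, was at 0 to 0.121 CPM after sham and 0.363 to 1.85 CPM after TAC. In sham it was under the level of 3 counts in a library (0.181 to 0.278 CPM), so it passed the filter through the TAC libraries, and it is counted among the 4 that rose. Further genes of this list were singled out after their values were seen. Ankrd37 also passed (1.83 ± 0.46, edgeR adjusted p = 0.0146), while Bnip3, P4ha1, Egln3 and Vegfa did not (0.87, 0.07, -0.33 and -0.64). These lists were drawn up with earlier results of the same data known, and all libraries of the TAC and sham groups enter each value. Their counts too are from TMM and were not repeated with library totals or without the 3 libraries low in Aldoc.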
